A study of Mus musculus with 3 samples.

Results

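GLI3 peaks centred in repeat sequence were 567 of the 16854 autosomal peaks of a GLI3 binding map from the early mouse forelimb bud. A peak was counted as repeat-centred where more than 50% of the bases within 50 bp of its summit were soft-masked, that is, written in lower case in the GRCm38.p6 genome (mm10). Soft-masking marks letters that recur across the genome or form simple repeats, and the map was otherwise drawn from mostly unmasked sequence. Of the autosomal bases 33.5% were masked, and 29.2% of tiled windows of that length met the rule, against 3.36% of the peaks. The masking program is not named in the sources used here, so no repeat family name is given below.

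The chromatin came from forelimb buds of E10.5 mouse embryos of 32 to 35 somites, and GLI3 was pulled down through a FLAG epitope carried by the endogenous protein. The mice had a mixed background, and their label gives the genotype as wild type without naming the tagged allele. There were 2 ChIP libraries, each pooling the limb buds of 2 litters. The background was measured in 1 input library made without antibody. The authors deposited 1 list of peaks, attached to the first ChIP library, and it was read here as the joint call over both. The paper describes its own table of called GLI3 peaks as coming from 2 biological replicates. No source says outright that the deposited list is that call. No peak has a value per replicate, and every interval below covers counting error over peaks only. Whole limb buds were used, so binding in a few cells and weak binding in many cannot be told apart.

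GLI3 is a zinc finger transcription factor of the Hedgehog (HH) pathway that is processed to a repressor without HH signal. GLI proteins bind the 9 bp sequence GACCACCCA. Repeats in the mouse genome are of several kinds. Interspersed repeats are copies of transposable elements scattered over the chromosomes. Tandem repeats are short units written many times in a row, including the TTAGGG hexamer of telomeres, the protective ends of chromosomes. Copies of an element share their sequence, so a binding site in the ancestral element is carried to many places. Reads from near-identical copies cannot be placed with certainty by an aligner, which limits any measurement in recent repeats.

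The members fell into 424 of interspersed type and 143 of tandem type. Tandem type meant that at least 60% of the masked letters equalled the letter 1 to 6 positions before. All other members are called interspersed type, without a repeat annotation behind the name, so they are not all copies of transposable elements. These include peaks in the 5S ribosomal RNA gene cluster. They also include members not far under the limit, such as those at Ephb3 (53.1%) and Hmga2 (59.6%). With a limit of 50% there would be 279 tandem and 288 interspersed members. Among the interspersed members 89 fell into 9 groups of similar sequence by blastn. The largest group had 47 members on 17 chromosomes and is shown first, because most of its members held a GLI match. The sequences of 8 high-ranked members with a match in masked letters follow, each as 79 bases on the strand of the match, with the 9 bp match in capitals and 35 bases on each side. They are named by the gene with the nearest protein-coding transcription start site (TSS), and positions are GRCm38 (mm10). The capitals mark the match nearest the summit, which was not the same site in all 8. Near Ocstamp the repeat is written on its opposite strand and another word is marked. Near Uts2b a CACCACCCA at the place most of the others share stands in lower case before the capitals.

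Near Sox4, chr13:28640973-28641051, plus strand: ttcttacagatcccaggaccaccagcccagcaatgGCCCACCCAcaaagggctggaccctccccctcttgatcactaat
Near Disc1, chr8:125099929-125100007, plus strand: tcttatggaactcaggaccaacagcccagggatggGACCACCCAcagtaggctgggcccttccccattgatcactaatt
Near Ranbp3l, chr15:9009354-9009432, minus strand: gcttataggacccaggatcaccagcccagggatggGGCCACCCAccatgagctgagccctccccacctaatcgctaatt
Near Uts2b, chr16:27358423-27358501, plus strand: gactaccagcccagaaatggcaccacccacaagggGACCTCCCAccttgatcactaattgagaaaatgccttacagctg
Near Arl14, chr3:69211074-69211152, plus strand: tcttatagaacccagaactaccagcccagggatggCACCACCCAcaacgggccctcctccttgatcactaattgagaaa
Near Ocstamp, chr2:165415908-165415986, plus strand: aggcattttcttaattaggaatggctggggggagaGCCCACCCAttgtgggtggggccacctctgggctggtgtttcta
Near Krr1, chr10:111833757-111833835, plus strand: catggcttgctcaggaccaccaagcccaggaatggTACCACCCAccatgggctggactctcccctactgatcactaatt
Near Col19a1, chr1:24569714-24569792, plus strand: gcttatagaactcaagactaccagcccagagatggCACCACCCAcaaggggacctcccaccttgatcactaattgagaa

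A pair of other kinds of member are shown by 1 window each, from 50 bases before to 50 after the summit on the plus strand. The first lies in the 5S ribosomal RNA gene cluster and the other at the Hes1 promoter in a run of AC dinucleotides, each with the masked letters in capitals.

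In the 5S cluster, chr8:123586242-123586342: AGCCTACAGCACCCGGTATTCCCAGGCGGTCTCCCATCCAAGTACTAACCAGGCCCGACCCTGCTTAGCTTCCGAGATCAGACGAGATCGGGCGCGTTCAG
At Hes1, chr16:30064212-30064312: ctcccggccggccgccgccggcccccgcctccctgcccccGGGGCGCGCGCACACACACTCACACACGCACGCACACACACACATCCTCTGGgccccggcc

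Repeat-centred peaks passed the significance threshold less often than the others. A peak was counted as significant at a false discovery rate (FDR, the authors' q-value) under 0.05, the threshold of the study. Of all autosomal listed peaks 42.7% passed it. Of the repeat-centred peaks 193 of 567 passed (34.0%, 95% Wilson interval 30.3 to 38.0), against 7002 of 16287 others (42.99%, 42.2 to 43.8). The odds ratio was 0.684 (95% interval 0.574 to 0.816, adjusted p = 7.75e-05, two-sided Fisher's exact test). All p-values of shares are adjusted over the same 14 tests by the Benjamini-Hochberg method. Peaks do not replicate the experiment, and a test over them speaks of the 1 list at hand. In the 285 members and 15812 others whose window held no repeated 32-mer, the odds ratio was 0.855 (adjusted exact p = 0.411), and within 5 strata of GC content it was 0.808 (adjusted p = 0.0519, n = 16854 peaks).

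The share under FDR 0.05 was lowest in the peaks with the most masked bases. It was 42.5% of 11476 peaks with no masked base, 44.4% of 3202 with 1 to 25 and 43.7% of 1609 with 26 to 50. It was 38.2% of 356 peaks with 51 to 75 masked bases, 32.4% of 111 with 76 to 100, and 21 of the 100 peaks with every base masked passed (14.2 to 29.98%). Just outside it, 91 of 207 peaks with 46 to 50 masked bases passed (44.0%), and just inside it 52 of 122 with 51 to 55 did (42.6%).

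The contrast between repeat-centred and other peaks was not the same at promoters and away from them. A promoter peak overlapped the window from 2 kb before to 1 kb after the TSS of a protein-coding transcript. Among promoter peaks 82 of 154 repeat-centred peaks were significant (53.2%, 45.4 to 61.0), against 3704 of 7944 others (46.6%). Among distal peaks the counts were 111 of 413 (26.9%, 22.8 to 31.4) and 3298 of 8343 (39.5%). The ratio of the promoter odds ratio to the distal one was 2.32 (adjusted p = 1.02e-04, n = 16854 peaks, over 9 such comparisons, two-sided z test of the log odds ratios). Taken alone, the distal odds ratio passed its test (0.562, adjusted exact p = 7.34e-07) and the promoter one did not (1.30, adjusted exact p = 0.182).

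**Figure D1:**
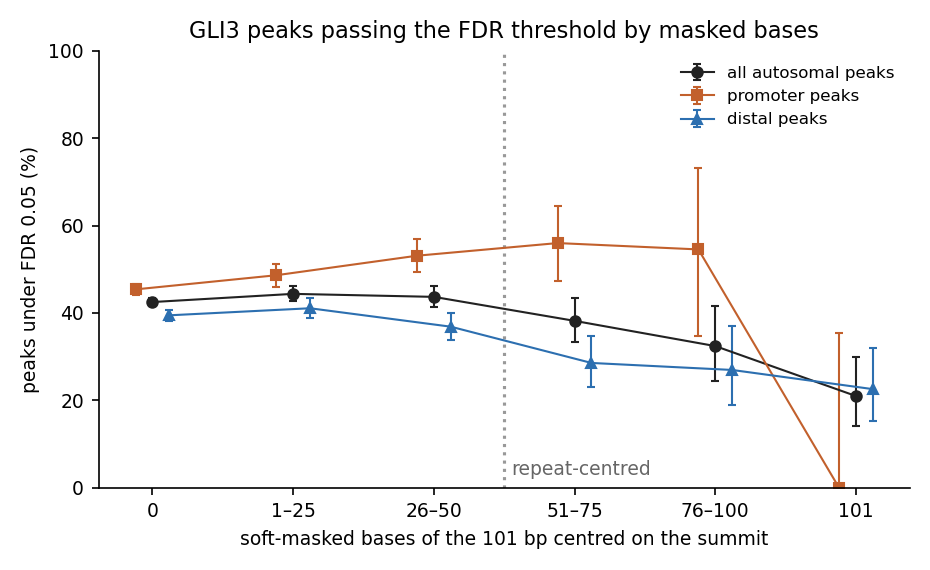
Share of peaks under FDR 0.05 (y axis, percent) by the number of soft-masked bases within 50 bp of the summit (x axis), for all, promoter and distal autosomal peaks; bars are 95% Wilson intervals and the dotted line is the limit of the rule. Distal peaks were at 39.5% with no masked base and 22.6% with every base masked, while promoter peaks were at 45.4% and 56.0% in the bins of 0 and 51 to 75; only 7 promoter peaks were wholly masked, with 0 significant.

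Among peaks that passed the threshold, no difference in enrichment passed the test. Enrichment is the largest log2 fold of ChIP over input in the peak. Over all listed peaks the median was 2.11 (interquartile range 1.91 to 2.48) for repeat-centred peaks and 2.23 (2.00 to 2.61) for the others. Among those under FDR 0.05 it was 2.75 (2.47 to 3.20) and 2.69 (2.47 to 3.06). There 107 of 193 members lay above the common median, against 3490 of 7002 others, and the odds ratio of 1.25 (0.939 to 1.67) did not pass the test (adjusted exact p = 0.165). Repeat-centred peaks, 3.36% of all, were 4 of the 99 best-ranked autosomal peaks (4.04%) and 21 of the best 497 (4.23%). They were 38 of the best 994 (3.82%), 62 of the best 1986 (3.12%) and 133 of the best 4945 (2.69%).

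Repeat-centred peaks were shorter. Their median length was 200 bp (150 to 300) against 250 bp (150 to 400), in steps of 50 bp. Of the members 189 of 567 were longer than the common median (33.3%), against 6902 of 16287 others (42.4%), with an odds ratio of 0.680 (0.569 to 0.812, adjusted p = 7.75e-05, two-sided Fisher's exact test). It did not pass the test among peaks under FDR 0.05 (odds ratio 0.825, adjusted exact p = 0.372), was 0.956 without windows with repeated 32-mers, and turned to 1.19 at promoters.

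Repeat-centred peaks lay at promoters less often than the others. Promoters held 154 of 567 repeat-centred peaks (27.2%, 23.7 to 31.0) and 7944 of 16287 others (48.8%, 48.0 to 49.5), an odds ratio of 0.392 (0.325 to 0.472, adjusted exact p = 3.94e-24). The summit lay between genes in 48.3% of members and 35.3% of others, in introns of protein-coding genes in 35.4% and 37.2%, and in UTRs in 8.64% and 15.0%. Coding exons held 6 members (1.06%) and 5.13% of the others. The sequence composition moved with this difference. The median GC content within 250 bp of the summit was 48.3% for members and 56.3% for others, and within strata of GC the odds ratio for promoters was 0.802 (adjusted p = 0.103, n = 16854 peaks).

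The median distance from summit to the nearest protein-coding TSS was 20828 bp for members and 1766 bp for the others. Among distal peaks the medians were 41769 and 46315 bp, and 191 of 413 members lay beyond the common distal median, against 4187 of 8343 others (odds ratio 0.854, 0.700 to 1.04, adjusted exact p = 0.165). Within GC strata the odds ratio was 0.692 (adjusted p = 0.00218, n = 413 distal members), and it passed the test under 3 other settings of the masking rule as well, while with the start sites of all genes it was 1.02. Another listed summit lay within 10 kb of 46.4% of members and 51.01% of others (odds ratio 0.831, 0.702 to 0.983, adjusted exact p = 0.0570). The direction depended on the rule, with 0.287 for wholly masked members and 1.25 at 25% masked (adjusted exact p = 1.02e-05), and with 1.27 among peaks under FDR 0.05. As with significance, promoter and distal peaks differed here. A neighbour within 10 kb was found for 111 of 154 promoter members and 4226 of 7944 promoter others, but for 152 of 413 distal members and 4082 of 8343 distal others. The ratio of these odds ratios was 3.74 (adjusted p = 2.55e-09, n = 16854 peaks).

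**Figure D2:**
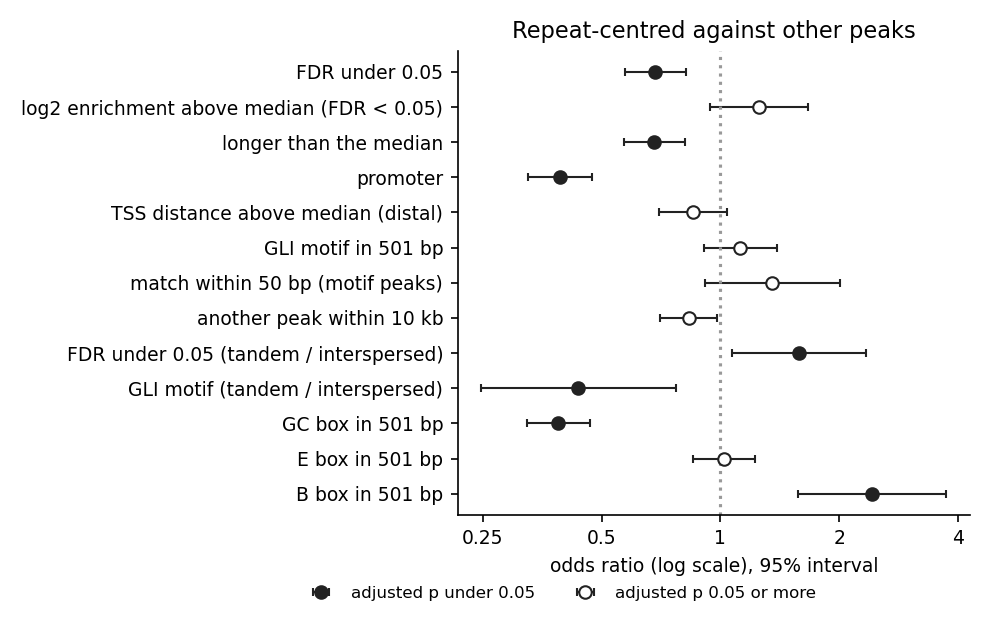
Odds ratios (x axis, log scale) of repeat-centred against other peaks, or of tandem against interspersed members where stated, with 95% intervals; filled points have an adjusted p under 0.05 in two-sided Fisher's exact tests. Promoter share (0.392) and GC box (0.388) lie farthest below 1 and the B box (2.43) farthest above; the CTCF core, at 0 members, has no finite interval and is not drawn.

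The share of peaks with a GLI motif did not differ beyond the test between repeat-centred peaks and the rest. The motif was GACCACCCA or its reverse complement with at most 1 mismatch, anywhere within 250 bp of the summit. It was found in 111 of 567 members (19.6%, 16.5 to 23.04) and 2900 of 16287 others (17.8%, 17.2 to 18.4), an odds ratio of 1.12 (0.910 to 1.39, adjusted exact p = 0.311). With interspersed members alone it passed the test, at 1.33 (adjusted exact p = 0.0272), and it turned to 0.944 (adjusted exact p = 0.790) when the largest group of similar sequences was left out as well. The exact 9 bp were in 13 members (2.29%) and 353 others (2.17%). Among peaks with a motif, the nearest match was centred within 50 bp of the summit in 41 of 111 members and 876 of 2900 others (odds ratio 1.35, 0.913 to 2.01, adjusted exact p = 0.165). This odds ratio was 0.990 without the largest group of similar sequences and 4.29 for wholly masked members (adjusted exact p = 0.00495).

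Many of the matches in repeat-centred peaks lay in the repeat itself. A match was counted as masked where at least 5 of its 9 letters were. The nearest match was masked in 58 of the 111 members with a motif (52.3%, 43.04 to 61.3) and in 155 of 2900 others (5.34%). This count follows in part from the rule, which asked for masked letters at the summit. Of the 58 masked matches 30 were in the largest group of similar sequences. Without that group the motif share of the members was 80 of 520 (15.4%), and the odds ratio against the others turned to 0.839 (adjusted exact p = 0.189). The 2 types of repeat were also compared. A motif was present in 95 of 424 interspersed members (22.4%, 18.7 to 26.6) and 16 of 143 tandem members (11.2%, 7.01 to 17.4), an odds ratio of 0.436 for tandem against interspersed (0.247 to 0.770, adjusted exact p = 0.00767). The call was lost without the largest group (0.616, adjusted exact p = 0.170) and without the members with telomeric hexamers (0.553, adjusted exact p = 0.0805).

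Other motifs were counted on both strands of the same windows. The GC box GGGCGG, a promoter element bound by SP family factors, was in 163 members (28.7%) and 8302 others (50.97%), an odds ratio of 0.388 (adjusted exact p = 7.84e-25). Within GC strata this was 0.775 (adjusted p = 0.0995, n = 16854 peaks). The E box CATCTG, a sequence recognised by basic helix-loop-helix proteins, was in 30.7% and 30.2% (odds ratio 1.02, adjusted exact p = 0.816), and among distal peaks alone it was rarer in members (odds ratio 0.737, adjusted exact p = 0.00638). The core of the CTCF motif, an insulator protein's site, was found in 0 members and 0.620% of the others. A count of 0 in 567 allows a share of up to 0.529% by the rule of 3 counts and 0.673% by the Wilson limit, which lie on either side of the others' share, and the difference did not pass the test (adjusted exact p = 0.0805).

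The B box, GTTCGANNC, is part of the internal promoter of transfer RNA genes and of the short interspersed repeats derived from such RNAs, both read by RNA polymerase III. It was found in 23 members (4.06%, 2.72 to 6.01) and 279 others (1.71%), an odds ratio of 2.43 (1.57 to 3.74, adjusted exact p = 7.53e-04). In 21 of the 23 members the box was in masked letters. Of the 23 members 0 lay within 250 bp of the 386 autosomal tRNA genes in RefSeq, and of the 279 others 16 did. These counts are small and were not compared by a test. Under FDR 0.05 were 4 of the 23, beside 34.0% of all repeat-centred peaks and 42.7% of all autosomal listed peaks. Among peaks under that threshold the odds ratio for the B box was 1.30 (adjusted exact p = 0.706). The call was also lost without windows with a repeated 32-mer (1.48, adjusted exact p = 0.483) and at 25% masked (1.18, adjusted exact p = 0.418).

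The largest group of similar sequences carried most of the masked GLI matches. Its 47 peaks lay on 17 chromosomes and 0 were at promoters. Of these 17 were under FDR 0.05 (36.2%, 23.97 to 50.5). Log2 enrichment ran from 1.72 to 4.67 with a median of 2.13. A GLI motif was present in 31 of the 47 (66.0%, 51.7 to 77.8), in masked letters in 30 of them, and within 50 bp of the summit in 17. The median of its members' typical 32-mer counts was 1, so in the median member the usual 32-mer was found once in the genome. The highest typical count of a member was 5245.5. Only 4 of the 47 windows held no repeated 32-mer at all.

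The best-ranked peak of the group was the third of all repeat-centred peaks, at rank 55 of the list. It lay 312646 bp from the TSS of Sox4, a transcription factor of the SOX family, on chromosome 13 from 28640800 to 28641449, with every base of its window masked and a log2 enrichment of 4.67. Its match, GCCCACCCA, was centred 55 bp from the summit. The next was at rank 306 in an intron 8521 bp from the TSS of Asb6 and 13160 bp from that of Prrx2, a homeobox gene of limb mesenchyme. It had a log2 enrichment of 3.92 and no match within 250 bp of its summit. A 32-mer of its window occurs 2795 times in the genome, so some of its reads could match many places. The peak in an intron of Disc1, at rank 870 with a log2 enrichment of 3.43, held the exact GACCACCCA 129 bp from the summit.

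The whole set of copies of this repeat shows which of them held a peak. A stretch of 399 bp shared by the group was searched against the autosomes (blastn, E under 1e-10), which gave 44183 copies. Only 58 listed peaks had their summit in a copy, 0.131% of the copies, and 56 of these peaks were repeat-centred. The choice of this repeat followed from the group size, but the count by match was made after the values were seen and carries no test. Copies with an exact GACCACCCA numbered 193, and 4 of them held a listed summit (2.07%, 0.809 to 5.21). With 1 mismatch the share was 31 of 10879 (0.285%, 0.201 to 0.404). With 2 mismatches it was 21 of 24446 (0.0859%, 0.0562 to 0.131), and with 3 or more it was 2 of 8665 (0.0231%, 0.00633 to 0.0841). The share was thus lower in each class with more mismatches, with 4 and 2 peaked copies in the end classes. The intervals of the last 2 classes overlapped. No share was computed for other sequence of the same length, so these shares are not set against the rest of the genome.

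The same order held for peaks under FDR 0.05, with 2 of 193, 10 of 10879, 7 of 24446 and 0 of 8665 copies. Copies with the exact sequence were not those nearest to the shared stretch. Their median identity to it was 73.2%, against 79.3%, 79.2% and 76.6% for 1, 2 and 3 or more mismatches. The order was also kept among copies at or above the median identity, with 2 of 29, 21 of 5880, 11 of 12832 and 1 of 3357 holding a summit, and among those below it, with 2 of 164, 10 of 4999, 10 of 11614 and 1 of 5308. The median distances to genes in the same classes were 49445, 50812, 56892.5 and 55744 bp from the nearest protein-coding TSS. Within 10 kb of such a TSS lay 19.69%, 16.003%, 14.59% and 14.56% of copies, the same order as the peak shares. Median copy lengths were 282, 368, 369 and 193 bp. The order was kept among copies of 200 bp or more. There 4 of 150, 31 of 9523, 17 of 20993 and 1 of 4100 held a summit. Whether copy length or distance to genes has a part in the order was not tested.

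**Figure D3:**
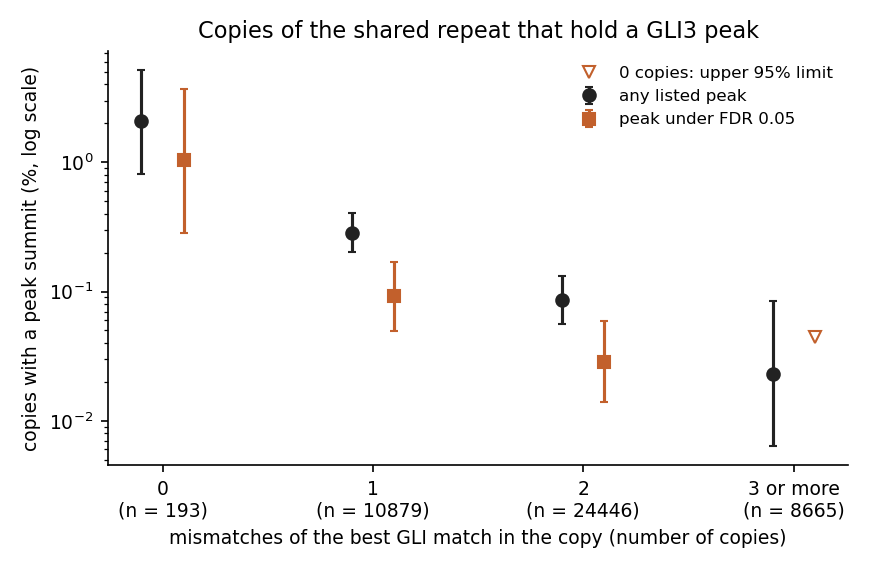
Share of the 44183 autosomal copies of the shared repeat that hold a peak summit (y axis, percent, log scale), by mismatches of the best GLI match in the copy (x axis); circles are any listed peak, squares peaks under FDR 0.05, bars 95% Wilson intervals, and the open triangle is the upper limit where 0 copies held a peak. The share of copies with any peak goes from 2.07% with 0 mismatches to 0.0231% with 3 or more.

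In most copies with a match, the match lay near 1 place in the repeat. Among the 11072 copies with at most 1 mismatch, 88.4% had it within 20 bp of position 241 of the 399 bp. Of the 35 such copies with a peak, 34 had it there. Matches on either strand were counted, so this range can hold more than 1 site, as in the sequences near Ocstamp and Uts2b above. The usual word was CACCACCCA, in 7509 copies of which 20 held a peak (0.266%, 0.172 to 0.411). TACCACCCA stood in 1576 copies with 5 peaks (0.317%), and AACCACCCA in 331 copies with 0. GCCCACCCA, the word at the peak near Sox4, was in 97 copies with 2 peaks (2.06%, 0.567 to 7.21), both under FDR 0.05. These last counts are small and their intervals wide. Words were counted on either strand of the repeat, wherever the best match lay.

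The other groups had at most 9 members each. The second group had 9 members, with 3 under FDR 0.05, 2 with a GLI motif and 5 with a B box. Its best peak, at rank 500, lay 12321 bp from Vmn1r1, a vomeronasal receptor gene, with a log2 enrichment of 3.70 and the word GACCACACA. The fourth group had 7 members with 0 under FDR 0.05, its best at rank 9117 near Gpr12. The fifth had 6 members, 1 of them significant, at rank 827 and 73137 bp from Taf1b with a log2 enrichment of 3.45. The sixth had 6 members with 0 under FDR 0.05, and its typical 32-mers occur 3134 times in the genome.

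The third group was a gene cluster rather than a dispersed repeat. Its 7 members lay among the 40 annotated 5S ribosomal RNA genes on chromosome 8 between 123542178 and 123622046, or within 1613 bp of one of them. The 5S RNA is a component of the large ribosomal subunit and its genes are read by RNA polymerase III. Of the 7 peaks 5 were under FDR 0.05, with log2 enrichments from 2.13 to 2.58. None held a GLI motif. The cluster and its 20 kb flanks held 10 listed peaks, 6 of them significant. The other annotated 5S genes on the autosomes held 0 listed summits. The median 32-mer of the group was found 46 times in the genome, so reads of these peaks could match several places, and the 7 peaks may not be independent.

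Tandem members were significant more often than interspersed ones, at a share close to the 42.7% of all autosomal listed peaks. Under FDR 0.05 were 60 of 143 tandem members (42.0%, 34.2 to 50.2) and 133 of 424 interspersed members (31.4%, 27.1 to 35.9), an odds ratio of 1.58 (1.07 to 2.34, adjusted exact p = 0.0493). Promoters held 42.0% of the tandem and 22.2% of the interspersed members, and among distal peaks alone the odds ratio was 1.31 (adjusted exact p = 0.359). With a limit of 70% for the tandem type it was 1.20 (adjusted exact p = 0.558), and with 50% it was 2.63 (adjusted exact p = 4.58e-07). The commonest units were AACCCT (25 members, 8 under FDR 0.05), AG (22, 9), AC (21, 7), A (21, 11) and AGG (12, 7). The AACCCT members had 0 promoters among them, while the A and AGG members had 11 and 7.

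AACCCT is the telomeric hexamer read on the other strand. In all 28 listed peaks held at least 3 telomeric hexamers within 50 bp of the summit, and all 28 were repeat-centred. This set was noticed in the data and is described without a test. Of these peaks 10 were under FDR 0.05, 0 were at promoters and 1 had a GLI motif. In 12 of them, on 11 chromosomes, the summit was within 1 kb of the last assembled base of the distal chromosome end, and the other 16 lay inside chromosomes. Tracts with at least 10 hexamers in a window of the same length numbered 18 at the distal ends, of which 11 held a listed summit within 100 bp (61.1%, 38.6 to 79.7), and 138 elsewhere, of which 22 did (15.9%, 10.8 to 22.96). With at least 3 hexamers the counts were 11 of 20 at the distal ends and 29 of 1399 elsewhere (2.07%). Any listed summit was counted, so the peak need not be one of the 28. Tracts near each other can share 1 summit and are then not independent.

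The peak at the end of chromosome 16, 246 bp from the last assembled base, was at rank 387 with a log2 enrichment of 3.82. The peak at the end of chromosome 2 was at rank 476 with 3.72. Inside chromosome 4, the peak with Map3k7 as nearest gene had 3.19. Telomeric peaks had higher median Poisson values than the rest, and the values overlapped. The median −log10 Poisson p was 19.1 for the 18 telomeric peaks at FDR 0.05 or more and 7.15 for the other such peaks, and 36.5 against 16.6 under FDR 0.05. A 32-mer of these tracts occurs up to 1823 times in the genome, and the part of shared reads in the enrichment of these peaks was not tested.

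**Figure D4:**
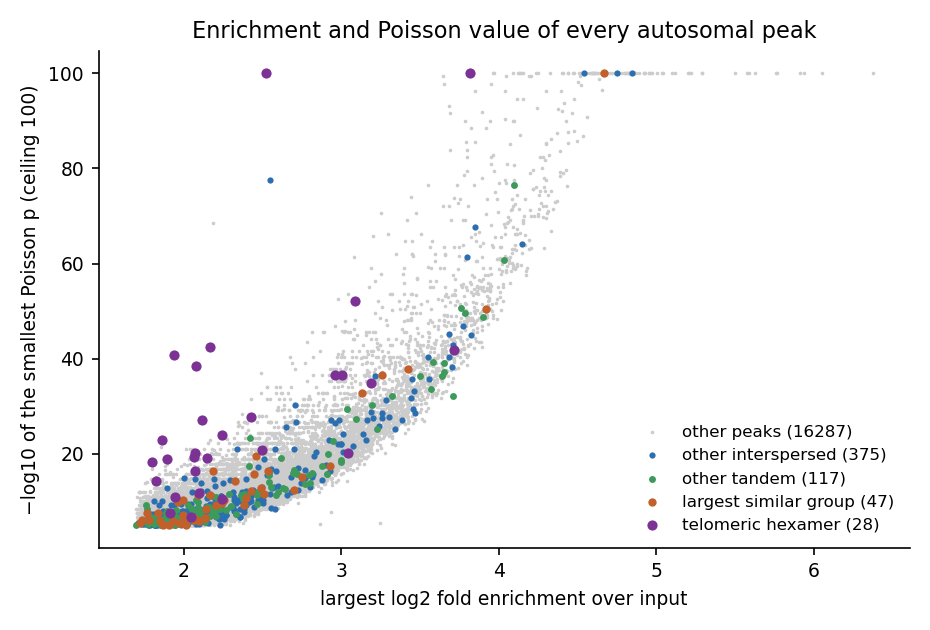
Largest log2 fold enrichment over input (x axis) and −log10 of the smallest Poisson p (y axis, ceiling 100) of each autosomal listed peak, coloured by kind of repeat-centred peak, with other peaks in grey. The median −log10 Poisson p was 21.9 for telomeric peaks, 9.57 for the other peaks and 9.68 for the largest group of similar sequences, and the points of the 3 kinds overlap.

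The 25 best-ranked repeat-centred peaks were at ranks 38 to 564 of the list. Of these, 12 were promoter peaks, 2 belonged to the largest group, 1 to the second group and 2 were telomeric. The first was in an intron 78 bp from the TSS of Ephb3, a receptor tyrosine kinase for ephrins, at rank 38 with a log2 enrichment of 4.85. The second was 176 bp from the TSS of Patz1, a zinc finger regulator, with 4.75 and the word GACCCCCCA centred 37 bp from the summit. The fourth, 7330 bp from the TSS of Spen, a transcriptional corepressor, had 4.54 and the word GGCCACCCA 16 bp from its summit.

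Some of the 25 are described by their nearest gene. Hmga2, an architectural chromatin protein, had a promoter peak with 100 masked bases and a log2 enrichment of 4.15. Hes1, a repressor of the Notch pathway, had 4.10 in its AC run, and Maml3, a coactivator of Notch, had 3.85 with the word GACCGCCCA. Tle3, a Groucho corepressor, had 3.71 with 90 masked bases, and Sp3, a factor that binds GC boxes, had 3.76. None of Hmga2, Hes1, Tle3 and Sp3 had a GLI motif within 250 bp of the summit.

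The remaining members of the 25 had log2 enrichments from 3.65 to 4.03. Promoter peaks were at Senp3, a SUMO protease, Zfp36l1, an mRNA decay factor, Tnks2, a tankyrase, Gnaq, a G protein subunit, Prr12 and Eif5a, a translation factor. Distal ones had as nearest genes Asb6, Camta1, A630089N07Rik, Bicral, Cstad, Gm14496, Uqcrfs1, Sema4c, Vmn1r1 and Tmem30b. GLI motifs were present at Vmn1r1 (26 bp from the summit), Prr12 (176 bp) and Eif5a (229 bp). The Camta1 peak was in a run of AAAAAC units whose 32-mer occurs 2588 times.

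Peaks near known targets of the pathway were few among members and others, and the shares were not tested. Within 100 kb of a TSS of 17 HH target genes lay 2 members (0.353% of them), against 136 others (0.835%) and 0.819% of all listed peaks. Both were near Tbx3, a T-box factor of the limb bud. The first was at its TSS (184 bp, rank 819, log2 enrichment 3.45) with 52 masked bases, 1 more than the rule asked, and the second 41842 bp away (rank 3164, 2.77) in AGG repeats, with the word GAACACCCA. Both were under FDR 0.05.

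Near 20 limb transcription factor genes lay 5 members (0.882%), against 154 others (0.946%) and 0.943% of all. Among the members were peaks 13160 bp from Prrx2, 78451 bp from Lmx1b, a dorsal patterning factor (log2 enrichment 2.90), 53399 bp from Hand1 (2.82) and 162 bp from Runx2, a bone regulator (2.12, FDR 0.233). The peaks near Prrx2, Lmx1b and Hand1 were under FDR 0.05. Of these named peaks only the one at Runx2, in a coding exon, held a GLI motif, GACCACCCG, 142 bp from its summit.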

How the data were processed

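GLI3 ChIP-seq was analysed from the 1 peak list the authors deposited, attached to the first of 2 ChIP libraries and read here as the joint call over both and 1 input library. The study's methods name CisGenome 2.1.0 for peak calling, and the submitters' processing notes name Bowtie2 2.2.5 and mm10. The deposited FDR is the q-value of that caller. The deposited enrichment is the largest log2 fold over input in the peak, the deposited T score sets the rank, and the deposited −log10 Poisson p-value stops at 100. The study's methods state a minimum of reads per sample but no total for each library, and the list holds no read counts, so no value has a depth or a replicate error.

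Of 17149 listed peaks, 16854 were autosomal. The 290 on chromosomes X and Y and 5 on unplaced sequence were not used, and 0 peak ends lay beyond a chromosome. Windows around summits were read from the soft-masked RefSeq copy of GRCm38.p6, and genes from GENCODE M21 (basic). Uniqueness was the number of times a 32-mer occurs in the genome. Similar windows were joined at 60 aligned bp and E 1e-10 (BLAST+ 2.17.0). Counts of peaks entered two-sided Fisher's exact tests (SciPy 1.17.1), adjusted over 14 tests and tested on simulated data, and strata of GC content entered Mantel-Haenszel tests. Named genes are those nearest the 25 best members and the best of the 5 largest groups, and the genes of the 2 lists. Map3k7 and the genes beside printed sequences were named after their values were seen. The members and lists were chosen with earlier results of these data known. Alternatives changed the masking rule, window, threshold, promoter definition, motif and repeat type. A gene of the limb list and a member's sequence are not reported here.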

Additional observations from a re-analysis of the deposited data

Results flagged for a closer look

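For 3 results the contrast of repeat-centred with other peaks differed between promoter and distal peaks in a two-sided z test of the log odds ratios, adjusted over 9 comparisons. For the share under FDR 0.05 the promoter odds ratio was 2.32 times the distal one (adjusted p = 1.02e-04, n = 16854 peaks). For the share longer than the median it was 2.13 times the distal one (adjusted p = 2.95e-04, n = 16854 peaks). For the share with another listed peak within 10 kb it was 3.74 times the distal one (adjusted p = 2.55e-09, n = 16854 peaks). Peaks near each other are not independent, and the list gives no value per replicate.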

How the results depend on the processing

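Values are odds ratios of repeat-centred against other peaks, and the main ones stand in the text. "Within 25 bp" and "within 100 bp of the summit" name the stretch in which masking was read. Of 154 planned repeats, 93 kept direction and side of the threshold, 21 lost the call, 14 gained one and 26 changed direction. Of 10 added after seeing the data, 5 kept both. Where calls or directions changed the cause was not tested, other than fewer peaks in the subsets. The share under FDR 0.05 was 0.931 at 25% masked, 0.868 within 25 bp, 0.808 within GC strata, 0.855 without repeated 32-mers and 1.30 at promoters. Enrichment above the median was 0.675 at 75% masked and 0.750 when wholly masked. Length was 0.973 at 25% masked, 0.940 within 25 bp, 0.825 under FDR 0.05, 1.01 under FDR 0.01, 1.19 at promoters and 0.956 without repeated 32-mers. Promoter share was 0.682 under FDR 0.01 and 0.802 within GC strata. Distal TSS distance was 0.779 at 25% masked, 0.797 within 25 bp, 0.756 within 100 bp of the summit, 0.692 within GC strata and 1.02 with start sites of all genes.

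GLI motif share was 0.948 at 25% masked, 0.903 within 25 bp, 0.995 under FDR 0.05, 0.722 at promoters, 1.33 for interspersed members, 0.825 without repeated 32-mers and 0.839 without the largest group, or 0.944 with interspersed members alone and without it. A match within 50 bp was 4.29 when wholly masked, 1.81 within 100 bp of the summit, 0.758 at promoters, 1.68 for interspersed members, 0.521 for the exact consensus and 0.990 without the largest group. A neighbour within 10 kb was 0.518 at 75% masked, 0.287 when wholly masked, 1.25 at 25% masked, 1.03 within 25 bp, 0.649 within 100 bp of the summit, 1.27 under FDR 0.05, 1.48 under FDR 0.01, 0.608 for distal and 2.27 for promoter peaks, 0.729 for interspersed members and 1.30 without repeated 32-mers, and within 100 kb it was 0.558.

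Tandem against interspersed, the FDR share was 1.20 at the 70% rule and 1.31 for distal peaks, and the GLI share 0.242 for the exact consensus, 0.553 without telomeric members and 0.616 without the largest group. The GC box was 0.775 within GC strata. The E box was 0.981 at 75% masked, 0.941 when wholly masked, 0.944 within 25 bp, 0.880 under FDR 0.05, 0.737 for distal peaks, 0.731 within GC strata and 0.958 without repeated 32-mers. The B box was 2.92 when wholly masked, 1.18 at 25% masked, 1.63 within 25 bp, 1.30 under FDR 0.05, 1.06 under FDR 0.01, 2.31 at promoters and 1.48 without repeated 32-mers.

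No paired analysis was possible because each peak has 1 value over both replicates, and for the same reason no replicate was left out. The list gives no depth per library.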

Other observations

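The exact GACCACCCA was present within 250 bp of the summit of 13 repeat-centred peaks, of which 5 were under FDR 0.05, 0 were at promoters and 3 belonged to the largest group. Outside that group, 12 repeat-centred peaks had a mostly masked match (at least 5 of its 9 letters) within 50 bp of the summit. The best of them, after the peak near Vmn1r1, were 269 bp from the TSS of Pcbd2 with the word GACCAGCCA (log2 enrichment 2.44), 7362 bp from Cdkn2b, a cell cycle inhibitor, with TACCACCCA (2.41), and near Hspa4, a heat shock protein gene, with GACCACACA (2.32). These peaks were named after their values were seen.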
